A study of Homo sapiens with 29 samples.

Results

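Mitosis and G2/M genes drive a cell from late G2 phase through division. They were followed here in the human diffuse large B-cell lymphoma lines DHL6 and DHL4 during exposure to R406, which blocks SYK, a tyrosine kinase of B-cell receptor signalling. The 50 genes were chosen by name, with earlier results of these data known, so their counts beside all genes are descriptive. Of them, 48 had a probe set with a single gene symbol among the 12165 genes of the microarray (Affymetrix, 3′-biased probe sets). KIF15 and UBE2C were not analysed here. Each line had 5 groups of arrays, namely DMSO (the solvent) and 1 µM R406 with exposures of 2, 6, 24 and 48 h. Every group held 3 arrays except DHL4 in DMSO with 2, which made 29 arrays in all. Both lines are established cultures of a cancer of mature B cells, grown in serum-containing medium. All 4 exposure times of a line share its DMSO arrays. The submitters' design text lists times for vehicle, but the labels give no time for any DMSO array. Exposure time and culture time therefore cannot be told apart. Separate cultures are not named either, and the p-values reflect variation from array to array, part of which may be technical.

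As a cell approaches division, cyclin A and then cyclin B bind the kinase CDK1. CDC25 phosphatases strip inhibitory phosphates from it, and polo-like and Aurora kinases build the spindle. The spindle assembly checkpoint holds the anaphase-promoting complex until every chromosome is attached, after which CDC20 switches that complex on, separase cuts cohesin and the cell divides in the middle. The RNAs of these proteins are made mainly in G2 and mitosis, so their level in a bulk sample depends on how many cells are in those phases. In RNA from whole cultures, fewer cells in a phase and less RNA per cell cannot be told apart.

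All levels below are log2 array values as the authors deposited them, and a difference is a log2 fold change ± SE from 1 linear model (limma) over all arrays. That model gives each gene a spread shared by all groups. An SE therefore does not show wider scatter within a group, as some members had in DHL6 at 48 h. A gene is called changed at an adjusted p below 0.05 over all 12165 genes. Replicate arrays correlated at r from 0.978 to 0.996, with 0 identical pairs. The B-cell genes MS4A1, CD79A and CD79B stood above 5 on every array, while PAX5 read 2.51 to 3.36 in DHL6 and 2.58 to 3.22 in DHL4. Of the germinal centre genes, BCL6 and MME stood above 5 on every array, and LMO2 read 2.71 to 5.71 in DHL6 and 2.9 to 6.35 in DHL4. None of the 5 T-cell or 3 monocyte markers exceeded 3.53. Of the 6 fibroblast and endothelium markers, PECAM1 read 2.86 to 7.77 in DHL4, and the other 5 stayed below 5. Over the 48 members, 3 arrays stood apart from the others of their group. Their median differences from DMSO were 0.01 for replicate 3 of DHL6 at 6 h (others 0.39 and 0.31), -0.51 for replicate 2 of DHL6 at 48 h (others -1.03 and -0.94) and -1.05 for replicate 3 of DHL4 at 48 h (others -0.52 and -0.53). The 3′ minus 5′ difference of the ACTB control probe sets, a measure of RNA integrity, was 2.16 to 2.43 in DHL6 at 48 h, against 1.25 to 2.02 in all other groups.

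Many promoters of G2/M genes carry a cell cycle genes homology region (CHR, letters TTTGAA), the docking site of the MuvB complexes that restrain these genes in resting cells and switch them on in G2, together with CCAAT boxes bound by NF-Y. RefSeq windows running from 250 bases before to 50 after a start site (GRCh38.p14) were found for 41 of the members, 51 windows in all. TTTGAA, read on both strands, was present in 64.7% of these windows and in 15.2% of all 35116 windows. CCAAT was present in 80.4% and 34.6%, and both motifs together in 58.8% and 5.90%. Overlapping matches of the motifs were each counted. Of the 35 members with a single window, 27 held TTTGAA, and in 14 of them it began 10 to 40 bases upstream of the start. The 250 bases upstream of the start are shown for 5 members whose changes carry the results below, 4 with a CHR and 1 without, all 5′ to 3′ on the gene's strand, with TTTGAA and CCAAT (or their reverse complements TTCAAA and ATTGG) in capitals. They lie at chr15:59104896-59105145 (plus strand, CCNB2), chr16:23678639-23678888 (plus strand, PLK1), chr10:128126424-128126673 (minus strand, MKI67), chr5:163460382-163460631 (plus strand, HMMR) and chr1:44739587-44739836 (plus strand, KIF2C).
CCNB2: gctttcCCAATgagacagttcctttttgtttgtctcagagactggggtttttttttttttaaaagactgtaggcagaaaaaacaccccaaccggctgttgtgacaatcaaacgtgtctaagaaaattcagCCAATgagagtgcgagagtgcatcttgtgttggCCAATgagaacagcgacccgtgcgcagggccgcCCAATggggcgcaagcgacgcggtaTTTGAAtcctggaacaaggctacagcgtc
PLK1: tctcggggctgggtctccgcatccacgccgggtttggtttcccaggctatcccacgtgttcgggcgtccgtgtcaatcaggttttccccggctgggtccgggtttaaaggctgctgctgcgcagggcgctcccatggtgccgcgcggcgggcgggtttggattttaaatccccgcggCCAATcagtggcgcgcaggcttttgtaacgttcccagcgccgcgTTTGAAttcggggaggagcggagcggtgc
MKI67: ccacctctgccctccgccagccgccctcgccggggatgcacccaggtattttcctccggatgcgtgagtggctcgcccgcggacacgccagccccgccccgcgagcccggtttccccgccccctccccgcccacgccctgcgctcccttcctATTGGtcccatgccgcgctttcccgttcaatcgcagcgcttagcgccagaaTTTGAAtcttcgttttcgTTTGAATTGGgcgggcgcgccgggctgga
HMMR: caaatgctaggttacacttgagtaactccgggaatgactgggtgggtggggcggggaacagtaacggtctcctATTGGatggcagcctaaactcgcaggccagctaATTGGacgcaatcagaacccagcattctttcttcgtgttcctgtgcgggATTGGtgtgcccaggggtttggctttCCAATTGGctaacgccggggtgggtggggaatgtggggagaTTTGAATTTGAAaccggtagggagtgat
KIF2C: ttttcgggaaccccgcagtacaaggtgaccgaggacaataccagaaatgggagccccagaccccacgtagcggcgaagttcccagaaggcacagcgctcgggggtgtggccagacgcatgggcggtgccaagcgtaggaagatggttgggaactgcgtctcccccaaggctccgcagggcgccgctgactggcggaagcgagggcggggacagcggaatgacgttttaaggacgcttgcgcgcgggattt
The CHR began 29 bases upstream of the start in CCNB2 and in PLK1, 47 and 29 in MKI67, and 28 and 22 in HMMR, where the copies lie end to end. The copy at 29 in MKI67 shares its last base with an inverted CCAAT box that begins at 24. CCNB2 has 4 CCAAT boxes, at 244, 120, 87 and 54 bases upstream, and PLK1 has 1, at 73. KIF2C holds neither string in this window. The 28 members with both motifs had a median difference of 0.65 at 6 h in DHL4, against 0.90 for the 13 members with windows that lacked 1 or both. At 48 h in DHL6 the medians were -0.94 and -0.70. These medians are a description of letters and levels and were not tested.

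In DHL6 a minority of members were called higher at 2 and 6 h, and most were called lower at 48 h. Differences were positive, called or not, for 38 of 48 members at 2 h and 44 at 6 h. At 2 h, 3 members were called higher and 0 lower (median 0.17), where 2.14% of all genes were called higher and 3.16% lower. At 6 h, 11 were called higher and 0 lower (median 0.23), against 3.14% and 5.12%. Without replicate 3 of the 6 h arrays the count was 12 (median 0.36), and without DMSO replicate 3 it was 7. At 24 h, 8 were called higher and 3 lower (median -0.08), against 6.2% and 8.17%, and 5 were called higher and 2 lower without DMSO replicate 3. Without replicate 2 of the 24 h arrays 2 were called lower, and 5 when dim genes were left out or in a model of the compared groups alone. At 48 h, 38 were called lower and 0 higher (median -0.90), against 14.9% and 8.39%, and 18 had fallen at least 2-fold. Without replicate 2 of the 48 h arrays, 39 were called lower (median -1.04). In 39 members every 48 h array lay below every DMSO array, against 19.3% of genes. The part of the higher ACTB 3′ minus 5′ difference in these 48 h values was not tested. The 3 risers at 2 h (CENPF, TOP2A and NUSAP1) varied with the arrays used, and 1 member was called when any 1 of the 2 h arrays was left out.

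In DHL4 the members rose first and fell later. At 2 h, 9 of 48 members were called higher and 0 lower (median difference 0.32), where 2.67% of all genes were called higher and 6.81% lower. At 6 h, 30 were called higher and 0 lower (median 0.66), against 6.42% and 6.36% of all genes, and 13 had risen at least 2-fold. At 24 h, 31 were called lower and only CDC25B higher (median -0.67), against 16.5% lower and 13% higher among all genes, and 16 had fallen at least 2-fold. At 48 h, 29 were called lower and 0 higher (median -0.69), against 3.8% and 3.53%. The median over all 12165 genes lay between 0.01 and 0.03 at these times. In 45 members every 6 h array lay above both DMSO arrays, which held for 21.6% of all genes. In 39 members every 24 h array lay below both, against 24.6% of genes, and in 42 every 48 h array did, against 18.3%. The 6 h count was 19 without DMSO replicate 2. The 2 h count was 2 without DMSO replicate 2 and 5 without DMSO replicate 1.

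**Figure D1:**
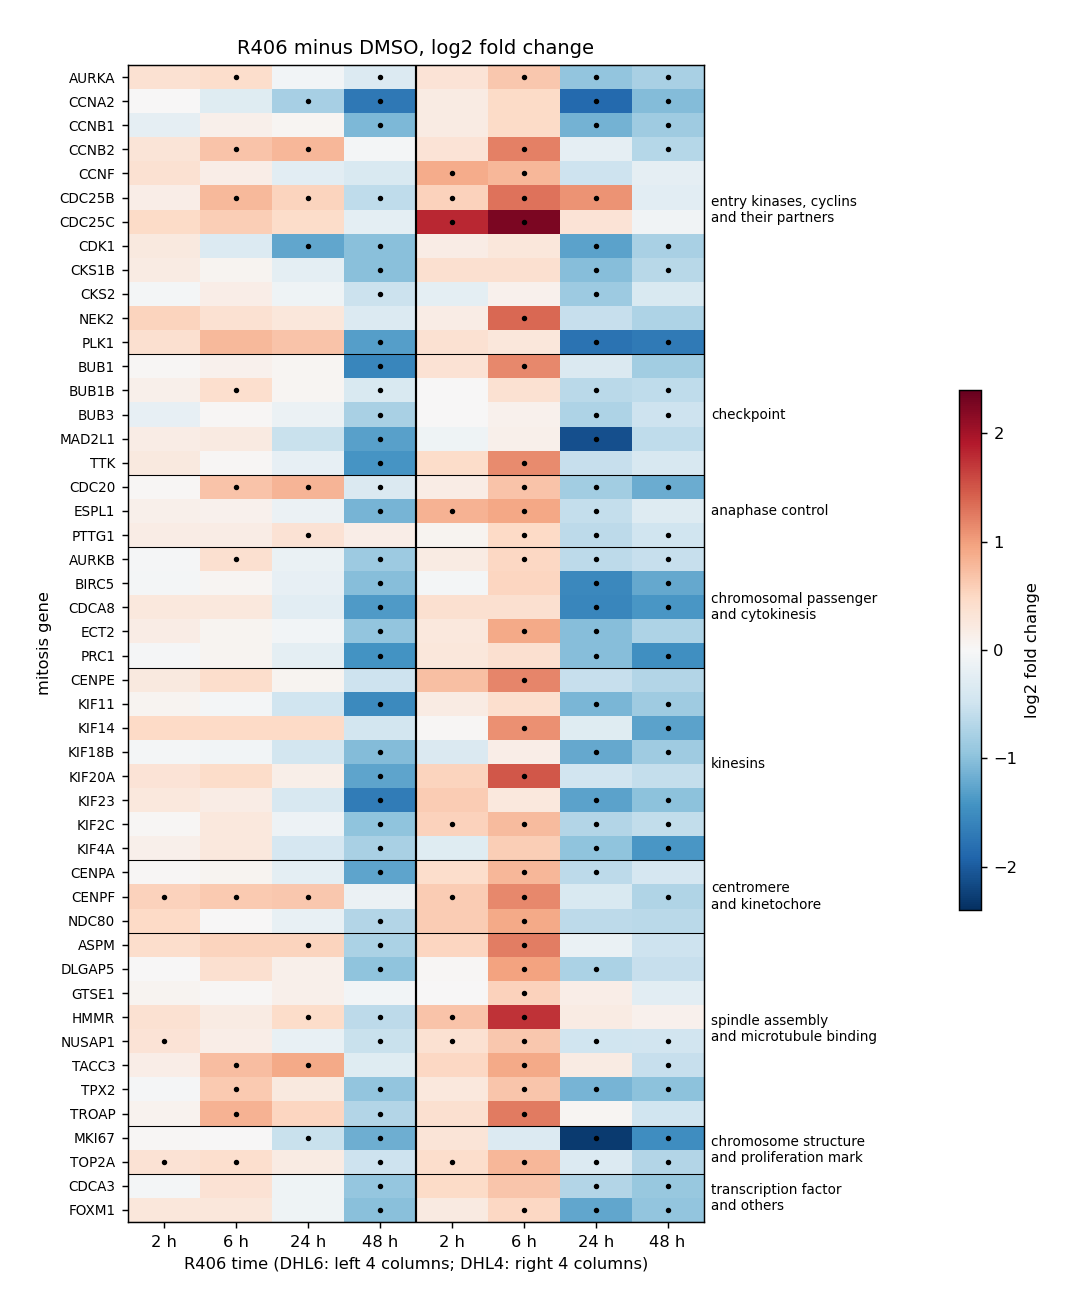
Log2 difference of R406 minus DMSO for each of the 48 members (rows, grouped by role) at 2, 6, 24 and 48 h, with DHL6 in the 4 left columns and DHL4 in the 4 right columns, and a dot where the adjusted p is below 0.05. The 6 h column of DHL4 holds 30 dots, all on rises, while dots on falls fill the 24 and 48 h columns of DHL4 and the 48 h column of DHL6.

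CDC25C and CDC25B are the phosphatases that activate CDK1, and PLK1 is the polo-like kinase that helps to switch them on. CDC25C in DHL6 read 3.60, 3.23 and 3.61 in DMSO, 3.83, 3.75 and 4.20 at 2 h, 4.23, 4.18 and 3.82 at 6 h, 3.76, 3.70 and 4.31 at 24 h, and 2.87, 3.33 and 3.56 at 48 h. The DHL4 values were 4.06 and 4.26 in DMSO, 5.98, 6.00 and 5.92 at 2 h, 6.58, 6.31 and 6.36 at 6 h, 4.45, 4.46 and 4.57 at 24 h, and 4.41, 4.15 and 3.63 at 48 h. The 2 h and 6 h arrays of DHL4 stood clear above its DMSO arrays, and no array of DHL6 reached that level. No CDC25C difference was called in DHL6, with 0.45 ± 0.19 at 2 h and 0.59 ± 0.19 at 6 h (adjusted p = 0.257 and 0.0575). The rise in DHL4 was 1.81 ± 0.21 at 2 h (3.5-fold, adjusted p = 1.66e-06) and 2.26 ± 0.21 at 6 h (4.78-fold, adjusted p = 2.3e-08). CDC25C was the dimmest member, the only one with a mean below 5, and RMA understates differences of dim genes. Its other probe sets were dimmer, with means of 3.25 and 3.01, and at 6 h in DHL4 the first rose by 1.41 ± 0.15 while the second (0.31) was not called.

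CDC25B in DHL6 read 6.21, 6.10 and 5.89 in DMSO, 6.46, 6.19 and 6.02 at 2 h, 6.53, 6.78 and 7.18 at 6 h, 6.62, 6.58 and 6.6 at 24 h, and 5.37, 5.42 and 5.58 at 48 h. It rose there at 6 and 24 h (0.77 ± 0.15 and 0.54 ± 0.15) and fell at 48 h (-0.61 ± 0.15, adjusted p = 0.00417), with no overlap between the 48 h and DMSO arrays. The DHL4 values were 5.79 and 6.08 in DMSO, 6.29, 6.46 and 6.74 at 2 h, 7.27, 7.27 and 7.18 at 6 h, 7.09, 7.11 and 6.79 at 24 h, and 5.89, 5.62 and 5.53 at 48 h. In DHL4 it was the one member called higher at 24 h (1.07 ± 0.17, adjusted p = 1.45e-05), after 0.56 ± 0.17 at 2 h and 1.31 ± 0.17 at 6 h, and it was not called at 48 h (-0.25 ± 0.17).

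PLK1 in DHL6 read 5.52, 5.72 and 5.57 in DMSO, 5.96, 6.24 and 5.79 at 2 h, 6.49, 6.42 and 6.21 at 6 h, 6.29, 6.23 and 6.37 at 24 h, and 3.55, 5.18 and 4.12 at 48 h. The DHL4 values were 7.25 and 7.27 in DMSO, 7.28, 7.62 and 7.94 at 2 h, 7.51, 7.49 and 7.6 at 6 h, 5.43, 5.34 and 5.67 at 24 h, and 5.94, 5.50 and 5.26 at 48 h. The 24 h arrays thus lay above DMSO in DHL6 and below DMSO in DHL4, without overlap in either. In DHL6 the differences of 0.77 ± 0.25 at 6 h and 0.69 ± 0.25 at 24 h were not called (adjusted p = 0.0554 and 0.0632), and PLK1 fell by 1.32 ± 0.25 at 48 h (adjusted p = 0.000282), where replicate 2 lay more than 1 log2 unit above the other 2 arrays. The fall in DHL4 was -1.78 ± 0.28 at 24 h and -1.69 ± 0.28 at 48 h (adjusted p = 1.1e-05 and 0.0002).

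The B-type cyclins drive mitosis with CDK1. CCNB2 in DHL6 read 8.32, 8.31 and 8.31 in DMSO, 8.51, 8.62 and 8.71 at 2 h, 9.20, 8.95 and 8.87 at 6 h, 9.12, 9.13 and 9.09 at 24 h, and 7.90, 8.43 and 8.49 at 48 h. The DHL4 values were 9.29 and 9.14 in DMSO, 9.49, 9.65 and 9.46 at 2 h, 10.29, 10.57 and 10.39 at 6 h, 8.94, 9.03 and 9.04 at 24 h, and 8.86, 8.67 and 8.05 at 48 h. CCNB2 rose at 6 h in both lines (0.69 ± 0.16 in DHL6 and 1.2 ± 0.17 in DHL4) and was still raised at 24 h in DHL6 (0.80 ± 0.16, adjusted p = 0.000623). In DHL4 it was not called at 24 h (-0.21 ± 0.17) and fell at 48 h (-0.68 ± 0.17), while in DHL6 at 48 h the arrays straddled the DMSO level (-0.04 ± 0.16). CCNB1 was not called at 2 or 6 h in either line. It fell at 24 h in DHL4 (-1.14 ± 0.17), when the difference in DHL6 was 0.05 ± 0.16, and at 48 h in both lines (-1.08 ± 0.16 in DHL6 and -0.86 ± 0.17 in DHL4).

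CCNA2, the cyclin of S phase and G2, showed no called rise against DMSO at any time. Its DHL6 arrays read 6.78, 6.77 and 6.94 in DMSO, 6.73, 7.0 and 6.78 at 2 h, 6.68, 6.72 and 6.23 at 6 h, 6.14, 5.80 and 6.19 at 24 h, and 4.62, 5.71 and 5.0 at 48 h. Its DHL4 arrays read 8.05 and 8.29 in DMSO, 8.48, 8.58 and 8.01 at 2 h, 8.75, 8.55 and 8.59 at 6 h, 5.91, 6.49 and 6.51 at 24 h, and 7.27, 7.36 and 6.72 at 48 h. The lowest group was 48 h in DHL6 and 24 h in DHL4. CCNA2 fell in DHL6 by 0.79 ± 0.22 at 24 h and by 1.72 ± 0.22 at 48 h (adjusted p = 0.0152 and 2.67e-06), and in DHL4 by 1.86 ± 0.25 and 1.05 ± 0.25 at those times (adjusted p = 1.12e-06 and 0.00759).

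CDK1, the kinase itself, was among the 3 members that fell at 24 h in both lines. Its DHL6 arrays read 8.71, 8.75 and 8.54 in DMSO, 8.86, 8.83 and 9.01 at 2 h, 8.52, 8.42 and 8.09 at 6 h, 7.49, 7.41 and 7.39 at 24 h, and 7.72, 7.85 and 7.41 at 48 h. Its DHL4 arrays read 9.50 and 9.31 in DMSO, 9.65, 9.61 and 9.47 at 2 h, 9.62, 9.77 and 9.66 at 6 h, 8.19, 8.01 and 8.15 at 24 h, and 8.78, 8.78 and 8.32 at 48 h. Every 24 h array lay more than 1 log2 unit below every DMSO array of its line. The 24 h fall was -1.24 ± 0.13 in DHL6 and -1.29 ± 0.15 in DHL4 (adjusted p = 1.38e-07 and 9.49e-08), and the 48 h fall was -1.01 ± 0.13 and -0.77 ± 0.15. CKS1B and CKS2, small proteins that bind the kinase, fell at 48 h in DHL6 (-1.0 ± 0.12 and -0.52 ± 0.11) and at 24 h in DHL4 (-1.03 ± 0.14 and -0.88 ± 0.12). At 48 h in DHL4, CKS1B fell by 0.67 ± 0.14 and CKS2 was not called (-0.37 ± 0.12, adjusted p = 0.0558).

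**Figure D2:**
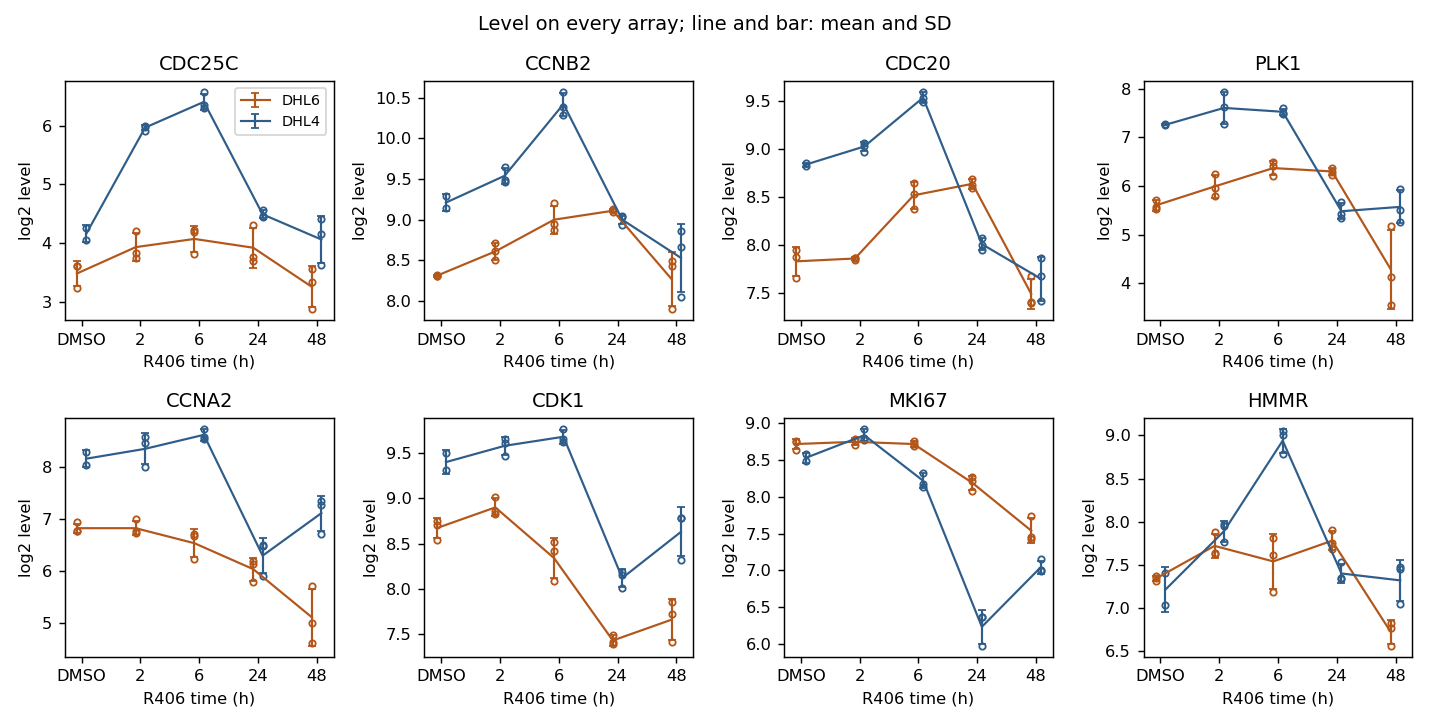
Deposited log2 level of 8 members on each array (circles), with the group mean and SD, in DMSO and after 2, 6, 24 and 48 h of R406, for DHL6 (orange) and DHL4 (blue). CDC25C and HMMR climb in DHL4 at 6 h, where their 6 h rises are smaller in DHL6 (line differences of -1.66 and -1.53), PLK1, CDC20 and CCNB2 stay at or above DMSO in DHL6 at 24 h, and CDK1 is low in both lines at 24 h.

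Other entry regulators also rose at 6 h in DHL4. AURKA, the kinase of the spindle poles, rose at 6 h by 0.42 ± 0.12 in DHL6 and by 0.64 ± 0.13 in DHL4. It fell by 0.33 ± 0.12 at 48 h in DHL6, and by 0.94 ± 0.13 at 24 h and 0.77 ± 0.13 at 48 h in DHL4. NEK2, a kinase that separates centrosomes, read 7.37, 7.27 and 7.48 in DHL4 at 6 h, against 6.34 and 5.67 in DMSO. All 6 h arrays lay above both DMSO arrays, which lay well apart from each other, and the rise was 1.37 ± 0.26 (adjusted p = 0.00044). CCNF, an F-box protein that marks other proteins for destruction, rose in DHL4 at 2 h (0.89 ± 0.20, adjusted p = 0.00334) and at 6 h (0.80 ± 0.20). Of the 12 entry kinases, cyclins and partners, 8 fell in DHL6 at 48 h, and in DHL4 6 rose at 6 h and 7 fell at 24 h. Of all genes, 14.9% were called lower in DHL6 at 48 h. In DHL4, 6.42% were called higher at 6 h and 16.5% lower at 24 h. The counts by role below stand beside the same shares.

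Of the 5 spindle assembly checkpoint genes, 5 fell in DHL6 at 48 h, and in DHL4 2 rose at 6 h and 3 fell at 24 h. MAD2L1, which inhibits CDC20, read 5.71, 5.93 and 5.54 in DHL4 at 24 h, against 8.19 and 7.49 in DMSO. At 48 h it read 7.56, 7.33 and 6.81, so of these times only the 24 h arrays stood clear of DMSO. At 24 h it fell by 2.11 ± 0.29 (4.32-fold, adjusted p = 1.71e-06). In DHL6 MAD2L1 read 4.50, 5.69 and 4.42 at 48 h, against 6.33, 6.07 and 6.11 in DMSO, a fall of 1.3 ± 0.26. BUB1, the checkpoint kinase that marks kinetochores, read 4.45, 6.11 and 4.44 in DHL6 at 48 h, against 6.63, 6.59 and 6.49 in DMSO. Replicate 2 lay far above the other 48 h arrays yet below DMSO, and the fall was 1.57 ± 0.31 (adjusted p = 0.000422). The SD of these BUB1 arrays was 0.96 at 48 h and 0.07 in DMSO, whereas the SE uses the spread shared by all groups. In DHL4 BUB1 rose at 6 h (1.15 ± 0.34, adjusted p = 0.0233) and was not called at 24 or 48 h (-0.35 ± 0.34 and -0.83 ± 0.34). BUB1B, the checkpoint protein BubR1, rose at 6 h in DHL6 (0.40 ± 0.12) and was not called at that time in DHL4 (0.37 ± 0.13, adjusted p = 0.0776). It fell at 48 h in DHL6 (-0.36 ± 0.12) and at 24 and 48 h in DHL4 (-0.64 ± 0.13 and -0.61 ± 0.13). TTK, the kinase at the head of the checkpoint, rose in DHL4 at 6 h (1.13 ± 0.33) and fell in DHL6 at 48 h (-1.41 ± 0.30). BUB3, the partner of BUB1, fell at 24 h in DHL4 (-0.74 ± 0.11) and at 48 h in DHL6 (-0.77 ± 0.10).

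The 3 genes of anaphase control act together in the cell to release the sister chromatids. CDC20, the activator of the anaphase-promoting complex, read in DHL6 7.88, 7.95 and 7.66 in DMSO, 7.86, 7.84 and 7.87 at 2 h, 8.53, 8.65 and 8.38 at 6 h, 8.63, 8.60 and 8.69 at 24 h, and 7.68, 7.41 and 7.39 at 48 h. In DHL4 it read 8.83 and 8.86 in DMSO, 8.97, 9.07 and 9.04 at 2 h, 9.49, 9.54 and 9.60 at 6 h, 8.07, 8.0 and 7.95 at 24 h, and 7.68, 7.87 and 7.42 at 48 h. At 24 h the arrays of DHL6 lay above, and those of DHL4 below, all DMSO arrays of their line. CDC20 rose at 6 h by 0.69 ± 0.11 in DHL6 and by 0.69 ± 0.12 in DHL4, and at 24 h it rose by 0.81 ± 0.11 in DHL6 (adjusted p = 4.81e-06) and fell by 0.84 ± 0.12 in DHL4 (adjusted p = 3.26e-06). At 48 h it fell in both lines, by 0.34 ± 0.11 in DHL6 and 1.19 ± 0.12 in DHL4. PTTG1, the securin that blocks separase, rose in DHL6 at 24 h (0.34 ± 0.09) and fell in DHL4 at 24 h (-0.62 ± 0.10). ESPL1, the separase, rose in DHL4 at 2 and 6 h (0.83 ± 0.16 and 0.92 ± 0.16) and fell in DHL6 at 48 h (-1.11 ± 0.15).

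Among the chromosomal passenger and cytokinesis genes all members fell at 48 h in DHL6 (5 of 5, median -1.02) and at 24 h in DHL4 (5 of 5, median -1.02). BIRC5, the survivin subunit of the passenger complex, read 6.79, 7.04 and 7.18 in DHL4 at 24 h, against 8.54 and 8.57 in DMSO. The arrays did not overlap, and the fall was 1.55 ± 0.21 (adjusted p = 1.71e-06). It fell at 48 h by 1.02 ± 0.19 in DHL6 and 1.22 ± 0.21 in DHL4. CDCA8, the borealin subunit, fell by 1.57 ± 0.14 at 24 h and 1.40 ± 0.14 at 48 h in DHL4. AURKB, the kinase of the complex, rose at 6 h (0.38 ± 0.12 in DHL6 and 0.49 ± 0.13 in DHL4), and fell at 48 h (-0.87 ± 0.12 and -0.56 ± 0.13) and at 24 h in DHL4 (-0.62 ± 0.13). PRC1, which bundles the microtubules of the spindle midzone, read 5.82, 6.87 and 6.02 in DHL6 at 48 h, against 7.67, 7.65 and 7.70 in DMSO, and 6.90, 6.60 and 6.11 in DHL4 at 48 h, against 8.03 and 8.0. All 48 h arrays lay below DMSO, with falls of 1.44 ± 0.19 and 1.48 ± 0.21.

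Among the 8 kinesins, the motor proteins that move chromosomes and slide spindle microtubules, 6 fell in DHL6 at 48 h, and in DHL4 4 rose at 6 h, 5 fell at 24 h and 6 fell at 48 h. Of all genes, 3.8% were called lower in DHL4 at 48 h. No kinesin was called in DHL6 at 2, 6 or 24 h. KIF20A, which carries the passenger complex to the midzone, read 8.16, 8.27 and 8.41 in DHL4 at 6 h, against 6.98 and 6.60 in DMSO. The rise was 1.49 ± 0.33 (adjusted p = 0.00224), and at 24 h KIF20A was not called (-0.46 ± 0.33). In DHL6 it read 4.31, 6.08 and 4.74 at 48 h, against 6.42, 6.41 and 6.10 in DMSO, a fall of 1.27 ± 0.29 with replicate 2 close to the DMSO range. KIF23, a motor of the central spindle, fell in DHL6 at 48 h, where it read 4.57, 4.73 and 4.20, against 6.19, 6.27 and 6.06 in DMSO (-1.67 ± 0.17, adjusted p = 1.19e-07). Here all 3 late arrays lay together. KIF11, which pushes the spindle poles apart, fell by 1.53 ± 0.17 at 48 h in DHL6 and by 1.09 ± 0.19 at 24 h in DHL4. KIF14, a motor of the midbody, rose in DHL4 at 6 h (1.09 ± 0.20) and fell there at 48 h (-1.28 ± 0.20), with 24 h in between (-0.29 ± 0.20, not called). KIF2C, a kinesin that takes microtubules apart at their ends, fell by 0.96 ± 0.14 at 48 h in DHL6, and in DHL4 rose by 0.55 ± 0.16 at 2 h and 0.76 ± 0.16 at 6 h and fell by 0.7 ± 0.16 at 24 h. KIF4A, a chromosome-bound motor, fell in DHL4 at 24 h (-0.97 ± 0.23) and 48 h (-1.40 ± 0.23). CENPE, the kinetochore motor, rose in DHL4 at 6 h (1.18 ± 0.24) and was not called in DHL6 at any time.

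Of the 8 spindle assembly and microtubule-binding genes, all 8 rose in DHL4 at 6 h (median 0.94). In DHL6, 1 was called higher at 2 h, 3 at 6 h and 3 at 24 h, and 6 were called lower at 48 h. Shares of all genes called higher in DHL6 were 2.14% at 2 h, 3.14% at 6 h and 6.2% at 24 h. At 24 h in DHL4 the median of these 8 genes was -0.05, with 3 called lower. HMMR, which binds spindle microtubules, read in DHL6 7.37, 7.35 and 7.31 in DMSO, 7.64, 7.63 and 7.88 at 2 h, 7.81, 7.61 and 7.19 at 6 h, 7.90, 7.68 and 7.75 at 24 h, and 6.56, 6.83 and 6.77 at 48 h. The DHL4 arrays read 7.40 and 7.03 in DMSO, 7.95, 7.97 and 7.76 at 2 h, 9.05, 8.78 and 9.0 at 6 h, 7.53, 7.35 and 7.34 at 24 h, and 7.47, 7.45 and 7.05 at 48 h. The 6 h peak of DHL4 had no match in DHL6. HMMR rose in DHL6 at 24 h (0.44 ± 0.14) and fell there at 48 h (-0.62 ± 0.14), and in DHL4 it rose by 1.73 ± 0.16 at 6 h (3.32-fold, adjusted p = 1.32e-08) and was not called at 24 or 48 h. TACC3, which cross-links spindle microtubules, read 7.64, 7.85 and 7.69 in DHL6 at 24 h, against 6.83, 6.94 and 6.70 in DMSO. This was the largest called rise of a member in DHL6 at 24 h (0.90 ± 0.15, adjusted p = 0.000121). TPX2, the activator of Aurora A, rose at 6 h in DHL6 (0.62 ± 0.12) and DHL4 (0.66 ± 0.13) and fell by 1.12 ± 0.13 at 24 h in DHL4. TROAP rose at 6 h by 0.83 ± 0.19 in DHL6, the largest called rise there, and by 1.24 ± 0.22 in DHL4. NUSAP1, which bundles microtubules around chromatin, rose at 2 h in both lines (0.33 ± 0.09 in DHL6 and 0.37 ± 0.10 in DHL4). ASPM, a protein of the spindle poles, rose in DHL6 at 24 h (0.53 ± 0.18, adjusted p = 0.0488) and in DHL4 at 6 h (1.23 ± 0.20).

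Of the 3 centromere and kinetochore genes, all were called higher in DHL4 at 6 h. CENPF, a kinetochore protein that accumulates in G2, rose at 2, 6 and 24 h in DHL6 (0.56 ± 0.13, 0.63 ± 0.13 and 0.64 ± 0.13) and was not called there at 48 h (-0.15 ± 0.13). In DHL4 it rose at 2 and 6 h (0.61 ± 0.14 and 1.15 ± 0.14) and fell at 48 h (-0.73 ± 0.14). CENPA, the histone H3 variant that marks centromeres, rose in DHL4 at 6 h (0.80 ± 0.20) and fell by 1.27 ± 0.18 in DHL6 at 48 h.

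MKI67 and TOP2A are chromosome proteins, and both are used as marks of proliferating cells. MKI67, the Ki-67 protein that coats mitotic chromosomes, read in DHL6 8.76, 8.75 and 8.64 in DMSO, 8.76, 8.79 and 8.70 at 2 h, 8.69, 8.76 and 8.72 at 6 h, 8.08, 8.27 and 8.22 at 24 h, and 7.43, 7.74 and 7.45 at 48 h. The DHL4 arrays read 8.58 and 8.49 in DMSO, 8.93, 8.77 and 8.80 at 2 h, 8.18, 8.33 and 8.13 at 6 h, 6.36, 6.36 and 5.97 at 24 h, and 6.99, 7.0 and 7.15 at 48 h. It was the only member below DMSO in DHL4 at 6 h (-0.32 ± 0.12, not called). MKI67 fell at 24 h by 0.53 ± 0.11 in DHL6 and by 2.3 ± 0.12 in DHL4 (4.94-fold, adjusted p = 9.31e-14), the largest fall of any member against DMSO. At 48 h it fell by 1.18 ± 0.11 in DHL6 and 1.49 ± 0.12 in DHL4. TOP2A, which untangles DNA before chromosomes part, rose at 2 h (0.34 ± 0.10 in DHL6 and 0.43 ± 0.11 in DHL4) and at 6 h (0.41 ± 0.10 and 0.80 ± 0.11), and fell at 48 h (-0.50 ± 0.10 and -0.70 ± 0.11). FOXM1, a transcription factor of G2/M genes, rose in DHL4 at 6 h (0.50 ± 0.16, adjusted p = 0.0387), fell there at 24 h (-1.25 ± 0.16) and fell at 48 h in both lines (-1.0 ± 0.14 in DHL6 and -0.95 ± 0.16 in DHL4).

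The lines were then compared directly, as the response of DHL6 minus that of DHL4. Higher and lower in this comparison refer to the response and not to the level, and the lines already differed in DMSO (below). At 2 h, 1 member differed, CDC25C (-1.36 ± 0.29, adjusted p = 0.00953), with 0.534% of all genes called lower and 1.22% higher. This call ended without DHL4 DMSO replicate 1 (0 members). CDC25C was dim in DHL6, at 3.23 to 3.61 in DMSO, where RMA understates differences. Its 2 other probe sets had the same sign for this difference, and 0 were called. At 6 h, 4 members were called lower in DHL6 and 0 higher, against 3.96% and 3.08% of genes, namely CDC25C (-1.66 ± 0.29), HMMR (-1.53 ± 0.21), ESPL1 (-0.81 ± 0.22) and NUSAP1 (-0.47 ± 0.14). This count ran from 2 to 8 when single arrays were left out, and was 12 in a model of the compared groups alone. At 24 h, 22 members were called higher in DHL6 and 0 lower (median 0.70), against 9.35% and 7.0% of genes. PLK1 led with 2.47 ± 0.37 (adjusted p = 2.13e-05), followed by MKI67 (1.78 ± 0.16), CDC20 (1.64 ± 0.16) and MAD2L1 (1.57 ± 0.39). CCNB1 (1.19 ± 0.23), CCNA2 (1.08 ± 0.33), CCNB2 (1.01 ± 0.23), BIRC5 (1.37 ± 0.28), FOXM1 (1.15 ± 0.22), AURKA (0.87 ± 0.18), CKS1B (0.79 ± 0.18), CKS2 (0.78 ± 0.16), BUB1B (0.69 ± 0.18) and TOP2A (0.52 ± 0.15) were also called. CDK1 showed no detectable difference at 24 h (0.05 ± 0.20, adjusted p = 0.939). Among the leading members, the 24 h group means were 6.3 in DHL6 and 5.48 in DHL4 for PLK1, and 8.19 and 6.23 for MKI67. They were 8.64 and 8.01 for CDC20, and 5.62 and 5.73 for MAD2L1. At 48 h, CDC20 (0.85 ± 0.16) and PTTG1 (0.63 ± 0.13) were higher, and ESPL1 (-0.81 ± 0.22) and HMMR (-0.73 ± 0.21) lower, against 1.62% and 3.46% of genes. The 2 lower calls were 0 without DHL6 DMSO replicate 1 or 2, DHL6 48 h replicate 1 or 3, DHL4 DMSO replicate 2 or DHL4 48 h replicate 1 or 2, and 0 in a model of the compared groups alone. Without DHL6 48 h replicate 2 they were 9, and without any other single array 1 to 3.

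**Figure D3:**
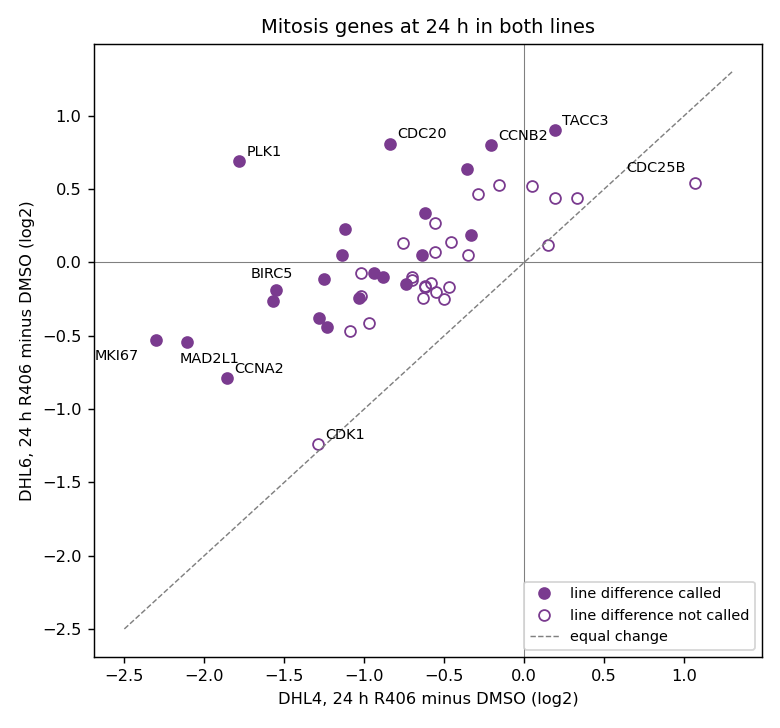
Log2 difference of R406 at 24 h minus DMSO for each member, DHL6 on the vertical axis and DHL4 on the horizontal axis, with filled points for the 22 members whose responses were called different and a dashed line of equal response. All filled points lie above the line, PLK1 farthest from it, and CDK1 lies on it at -1.24 in DHL6 and -1.29 in DHL4.

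The calls of the lines were set side by side. Of the 11 risers of DHL6 at 6 h, 10 were among the 30 risers of DHL4 (90.9% of the DHL6 risers and 33.3% of the DHL4 risers), where the risers made up 22.9% of all members in DHL6 and 62.5% in DHL4. All 3 fallers of DHL6 at 24 h, CDK1, CCNA2 and MKI67, were among the 31 of DHL4, of which they made 9.68%. At that time the fallers made up 6.25% of all members in DHL6 and 64.6% in DHL4. Of the 8 risers of DHL6 at 24 h, 1 (12.5%) also rose in DHL4, the only riser there. Risers at 24 h made up 16.7% of all members in DHL6 and 2.08% in DHL4. At 48 h, 24 members fell in both lines, 63.2% of the 38 in DHL6 and 82.8% of the 29 in DHL4, where the fallers made up 79.2% of all members in DHL6 and 60.4% in DHL4. The overlap at 48 h was thus close to the share of all members that fell. None of these overlaps was tested.

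Steps between R406 times use no DMSO array. In DHL6 the large step came last. Between 2 and 6 h, TROAP (0.76 ± 0.19), CDC20 (0.66 ± 0.11), TPX2 (0.63 ± 0.12), CDC25B (0.61 ± 0.15) and TACC3 (0.59 ± 0.15) rose and CDK1 fell by 0.56 ± 0.13, 5 and 1 of 48 members against 1.88% and 2.57% of genes. The rises were 3 without replicate 1 of the 2 h arrays, 2 without replicate 2 of the 2 h arrays and 3 without replicate 2 of the 6 h arrays. The fall of CDK1 was not called without replicate 3 of the 2 h or of the 6 h arrays, nor in a model of these 6 arrays alone, nor with the mean of all probe sets. Between 6 and 24 h, 6 members fell and 0 rose (median -0.28), against 2.53% and 3.3%, with CDK1 (-0.91 ± 0.13), MKI67 (-0.54 ± 0.11), AURKB (-0.53 ± 0.12) and CDCA8 (-0.51 ± 0.13) in front. Between 24 and 48 h, 38 fell and 0 rose (median -0.84), against 5.06% and 1.65%. PLK1 (-2.01 ± 0.25), BUB1 (-1.62 ± 0.31), KIF20A (-1.40 ± 0.29) and KIF23 (-1.3 ± 0.17) fell most, and CDK1 was not called (0.23 ± 0.13). In a model of these 6 arrays alone, 5 members were called lower.

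In DHL4, 17 members rose and 1 fell between 2 and 6 h (median 0.37), against 8.37% and 3.3% of genes. NEK2 (1.19 ± 0.23), KIF14 (1.06 ± 0.18), HMMR (1.05 ± 0.14) and KIF20A (0.95 ± 0.29) rose most, and MKI67 fell by 0.62 ± 0.11. With the mean of all probe sets 0 members were called lower at this step. Between 6 and 24 h, 47 members fell and 0 rose (median -1.51), against 13.5% and 8.75% of genes, and 43 fell at least 2-fold. In all 48 members every 24 h array lay below every 6 h array, which held for 20.7% of genes. CCNA2 (-2.33 ± 0.22), MAD2L1 (-2.23 ± 0.26), BIRC5 (-2.07 ± 0.19) and PLK1 (-2.05 ± 0.25) fell most, and CDC25B (-0.24 ± 0.15) was the member not called. Between 24 and 48 h the median was 0.10, with 6 called higher and 9 lower, against 14.4% and 10.7% of genes. MAD2L1 (1.5 ± 0.26), CCNA2 (0.82 ± 0.22), MKI67 (0.81 ± 0.11), CDK1 (0.51 ± 0.13), CKS2 (0.51 ± 0.11) and CKS1B (0.36 ± 0.12) rose. CDC25B (-1.31 ± 0.15), KIF14 (-0.99 ± 0.18), TACC3 (-0.76 ± 0.15) and TROAP (-0.53 ± 0.19) fell most. The 9 falls were 4 without replicate 3 of the 48 h arrays, when 11 rises were called, and 5 without replicate 2 of the 24 h arrays. The 24 to 48 h step itself was lower in DHL6 than in DHL4 for 28 members and higher for 0 (median -0.89), against 13.9% and 7.86% of genes, led by MAD2L1 (-2.26 ± 0.36), PLK1 (-2.10 ± 0.35), CCNA2 (-1.75 ± 0.31) and KIF23 (-1.59 ± 0.25). By group means, 46 of 48 members had their lowest mean at 48 h in DHL6, and 43 had their highest at 6 h in DHL4.

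**Figure D4:**
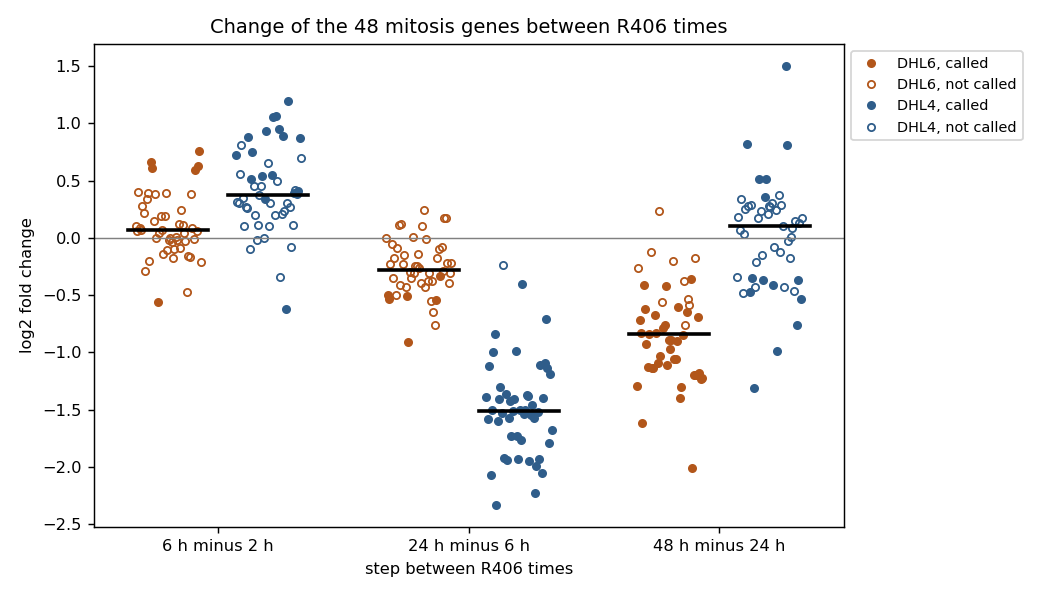
Change in log2 level between successive R406 times (6 minus 2 h, 24 minus 6 h and 48 minus 24 h) for each of the 48 members, DHL6 left of DHL4 at each step, with filled points where the change was called and a bar at the median. In DHL4 all members drop between 6 and 24 h (median -1.51), and in DHL6 the drop lies between 24 and 48 h (median -0.84).

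In DMSO the lines differed in level. The median of DHL6 minus DHL4 was -0.48, with 25 members called lower and 2 higher in DHL6, against 10.5% and 10.0% of genes. CENPE (-1.90 ± 0.24), MAD2L1 (-1.67 ± 0.29), PLK1 (-1.65 ± 0.28) and CDCA3 (-1.35 ± 0.24) were lower in DHL6, and CKS1B (0.43 ± 0.14) and BUB1B (0.42 ± 0.13) higher. The 2 higher calls were 0 without DHL6 DMSO replicate 1 or either DHL4 DMSO array, and 1 without DHL6 DMSO replicate 2 or 3. PLK1 in DMSO thus read 5.52 to 5.72 in DHL6 and 7.25 to 7.27 in DHL4. These differences compare the same probe set between lines and not members with each other.

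Of the 48 members, 18 had more than 1 probe set, 81 in all. Their 33 other probe sets gave a check on the readings, of which 21 had a mean of 5 or more. Among these, all 10 belonging to members called in DHL4 at 6 h had the same sign and 7 were called. All 17 had the same sign in DHL4 at 24 h (15 called) and all 18 in DHL6 at 48 h (16 called). For the step of DHL4 between 6 and 24 h, 21 of 21 fell and were called. The smaller steps were less uniform. For DHL6 between 6 and 24 h, 6 of 7 had the same sign and 1 was called. For DHL4, 7 of 8 had the same sign between 2 and 6 h (2 called) and 8 of 10 between 24 and 48 h (0 called). The 12 probe sets with a mean under 5 were also less uniform. In DHL4 the same sign was seen in 2 of 5 at 2 h (0 called), 12 of 12 at 6 h (4 called) and 0 of 1 at 24 h. In DHL6 at 48 h it was seen in 3 of 5 (1 called). No other probe set was called in the opposite direction in any comparison (0).

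A further 71 mitosis genes, among them condensin and kinetochore genes, were measured. They and the replication genes below were also chosen with earlier results of these data known. In DHL6 the counts were 5 higher and 2 lower at 6 h (median 0.02), 3 and 21 at 24 h (median -0.22), and 5 and 46 at 48 h (median -0.72). Shares of all genes called higher and lower in DHL6 were 3.14% and 5.12% at 6 h, and 6.2% and 8.17% at 24 h. At 48 h they were 8.39% and 14.9%. In DHL4 19 were called higher and 3 lower at 6 h (median 0.34), 2 higher and 45 lower at 24 h (median -0.80), and 1 higher and 26 lower at 48 h (median -0.46). Shares of all genes called higher and lower in DHL4 were 6.42% and 6.36% at 6 h, and 13% and 16.5% at 24 h. They were 3.53% and 3.8% at 48 h. Of the DNA replication genes, whose products act in S phase, 44 were measured. In DHL6, 9 fell at 6 h (median -0.23), 24 at 24 h (median -0.59) and 40 at 48 h (median -0.96), with 0 higher at each time. In DHL4 at 6 h, 1 was called higher and 4 lower (median -0.12), close to the shares of all genes, where 30 of 48 mitosis members rose. At 24 h, 41 replication genes fell there (median -1.53). Between 24 and 48 h, 37 replication genes rose in DHL4 and 0 fell (median 1.07), where the mitosis members had a median of 0.10. Of all genes, 14.4% were called higher and 10.7% lower at that step. MCM4, a subunit of the replicative helicase, fell by 2.92 ± 0.18 at 24 h in DHL4 and rose by 2.22 ± 0.16 between 24 and 48 h. The difference between the lists was described by these counts and medians and was not tested.

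**Figure D5:**
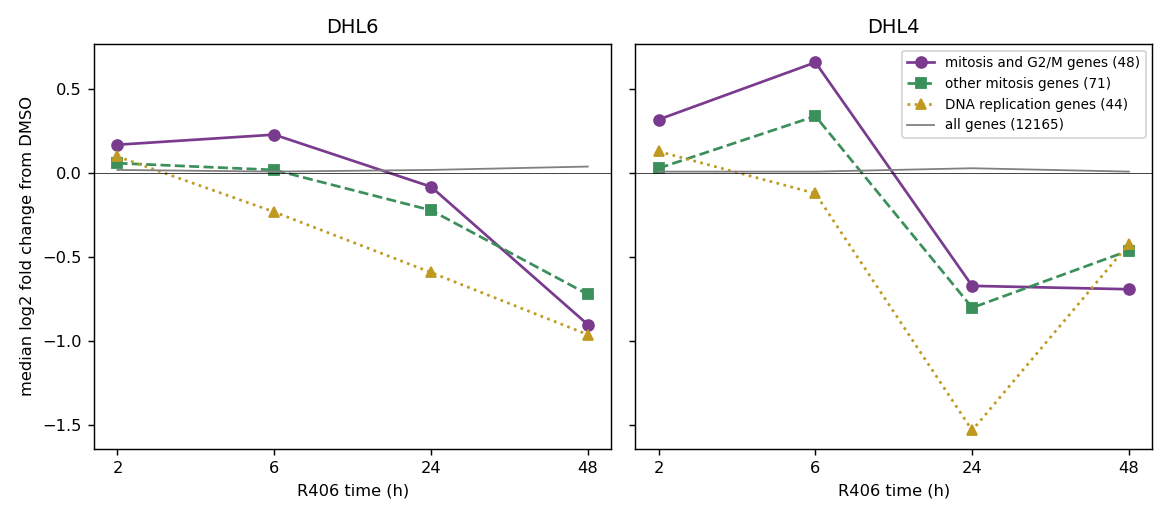
Median log2 difference of R406 minus DMSO at 2, 6, 24 and 48 h in DHL6 (left) and DHL4 (right) for the 48 mitosis members, 71 other mitosis genes, 44 DNA replication genes and all 12165 genes. The members peak at 6 h in DHL4 (0.66) while the replication genes do not (-0.12), the replication genes are lowest at 24 h in DHL4 (-1.53), and in DHL6 all 3 lists are lowest at 48 h.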

How the data were processed

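RNA of both lines was measured on 29 Affymetrix arrays. The authors' deposited values are log2 expression per probe set, summarised by RMA per the submitters' processing notes; its version is not given in the sources used here. RMA pulls dim probe sets together, so differences of dim genes are understated, and the number of arrays limits the precision. Probe sets (22277) were named from the platform annotation, and each gene took its brightest probe set with a single symbol, which gave 12165 genes.

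Using limma 3.58.1 (R 4.3.3), lmFit and eBayes estimated 1 mean per group from the 29 arrays together (10 groups, 19 residual and 5.05 prior degrees of freedom). The 20 contrasts were each adjusted by Benjamini-Hochberg over all genes and called at an adjusted p below 0.05. The fit was tested on simulated data. Members and lists were chosen with earlier results of these data known. The text always names PLK1, CDC25C, CDC25B, CCNB1, CCNB2, CCNA2, CDK1, CDC20, AURKA, AURKB, MKI67, FOXM1, TOP2A, BIRC5, KIF20A, CKS1B, CKS2, BUB1 and BUB1B. It adds the 6 called members of largest change per R406 contrast, 4 per step or line difference, called members that moved against the majority, and at most 3 called genes of each other list. ASPM, BUB3, CENPA and KIF2C fall outside this rule and were picked with their values in view, as were further comparisons of genes it names at one (TTK at 6 h in DHL4, for example).

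Alternatives were quantile normalization, centring on the array median, the mean of all probe sets, leaving out dim genes (no group mean of 5 or more), only the compared groups, a replicate block, an intensity trend and leaving out each array. Promoter windows are RefSeq's (GRCh38.p14). Same-numbered arrays of different groups had deviations correlated at a median of 0.00485 (-0.401 to 0.268), over pairs from both lines and all times. Arrays were therefore not paired by number in the main fit, and pairing within a line was not tested.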

Additional observations from a re-analysis of the deposited data

Results flagged for a closer look

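Responses that differed between the lines, tested by the interaction term (DHL6 response minus DHL4 response), were singled out. At 2 h this was 1 member, CDC25C (-1.36), which was dim in DHL6. At 6 h these were 4 members, CDC25C (-1.66), HMMR (-1.53), ESPL1 (-0.81) and NUSAP1 (-0.47). At 24 h, 22 members responded higher in DHL6, with the largest differences in PLK1 (2.47), MKI67 (1.78), CDC20 (1.64) and MAD2L1 (1.57). At 48 h, 2 members were higher, CDC20 (0.85) and PTTG1 (0.63), and ESPL1 (-0.81) and HMMR (-0.73) were lower, though both lower calls ended when any of several single arrays was left out. The change between 24 and 48 h was lower in DHL6 for 28 members, led by MAD2L1 (-2.26), PLK1 (-2.10), CCNA2 (-1.75) and KIF23 (-1.59).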

How the results depend on the processing

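Of 217 values of named members, 136 kept their call under all 36 alternatives, 81 lost it at least once and 0 changed sign. Counts called at 24 h in DHL4 (31), at 48 h in DHL6 (38) and DHL4 (29), between 6 and 24 h in DHL4 (47), in the lines' 24 h difference (22) and in the 24 to 48 h difference (28) stayed within 1.5 times of these values under all alternatives. Under quantile normalization the 2 h counts were 6 in DHL6 and 18 in DHL4, the line differences 2 at 2 h and 6 at 48 h, and the DHL6 6 to 24 h falls 11. Leaving out dim genes gave 14 at 2 h in DHL4, 4 for the 48 h line difference and 11 for the DHL6 6 to 24 h step, where an intensity trend gave 10. Centring gave 1 at 2 h in DHL6. The mean of all probe sets gave 7 for the 6 h line difference. With only the compared groups, counts were 5 (DHL6) and 4 (DHL4) at 2 h. The line differences then numbered 2, 12 and 1 at 2, 6 and 48 h. The DHL6 steps gave 1, 1 and 5, and the DHL4 24 to 48 h falls 4.

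Leaving out single arrays gave 1 to 5 at 2 h in DHL6 (1 without DMSO replicate 2 or 3 or any 2 h array, 5 without DHL4 48 h replicate 3) and 2 to 12 in DHL4 (5 and 2 without DMSO replicates 1 and 2). It gave 7 to 14 at 6 h in DHL6 and 19 to 34 in DHL4, and 5 to 10 at 24 h in DHL6. Line differences ran from 0 to 2 at 2 h (2 without DHL6 48 h replicate 2), 2 to 8 at 6 h (2 without DHL4 DMSO replicate 2, DHL6 DMSO replicate 1 or DHL4 6 h replicate 3, 8 without DHL6 48 h replicate 2) and 2 to 3 higher and 0 to 9 lower at 48 h. The steps ran from 2 to 6 (DHL6, 2 to 6 h), 4 to 9 (DHL6, 6 to 24 h), 29 to 40 (DHL6, 24 to 48 h) and 4 to 12 (DHL4, 24 to 48 h). The cause of these shifts was not tested.

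The labels do not say whether replicate numbers pair the arrays. With the number as a replicate block, the 6 h line difference had 7 members, not 4, and no other count moved by over 1.5 times.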

Other observations

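Among mitosis genes outside the members, MAD1L1, SMC2 and SPC25 moved more against DMSO than any member did. MAD1L1, a checkpoint protein that recruits MAD2 to kinetochores, rose at 6 h (1.10 ± 0.27 in DHL6 and 1.33 ± 0.30 in DHL4) and at 24 h (2.86 ± 0.27 in DHL6 and 4.46 ± 0.30 in DHL4, adjusted p = 2.75e-08 and 1.3e-11, limma), and remained up at 48 h in DHL6 (2.64 ± 0.27). In DHL4 it dropped by 4.25 ± 0.27 between 24 and 48 h, and the line difference at 48 h was 2.43 ± 0.41. These MAD1L1 values come from a single probe set and were not compared with another. Most other mitosis genes called in DHL4 at 24 h were lower.

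SMC2, a core subunit of the condensin complexes that compact chromosomes, fell at 24 h by 1.70 ± 0.23 in DHL6 and 2.59 ± 0.25 in DHL4, and by 2.12 ± 0.23 at 48 h in DHL6. SPC25, which couples kinetochores to microtubules, fell by 2.36 ± 0.31 at 24 h in DHL4 and by 2.16 ± 0.28 at 48 h in DHL6. LMNB1, the lamin B1 of the nuclear envelope, fell in DHL6 at 6 h (-1.96 ± 0.28) and 24 h (-1.71 ± 0.28). KIFC1, a kinesin that focuses spindle poles, fell in DHL6 at 6 h (-1.06 ± 0.18), with a line difference of -1.19 ± 0.27 at that time. In DMSO, PBK (-2.52 ± 0.23) was lower, and WEE1, the kinase that opposes CDC25 (1.69 ± 0.19), and MELK (1.15 ± 0.22) were higher in DHL6 than in DHL4.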
